A study of Mus musculus with 2 samples.

Results

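The genes described here make, carry, store and burn fatty acids: the acyl-CoA carboxylases and fatty acid synthase, elongases and desaturases, fatty acid binding and transport proteins, acyl-CoA synthetases, the acyltransferases, lipins, perilipins and lipases of lipid stores, and the enzymes of mitochondrial beta-oxidation. They were chosen by the start of their gene symbol, and the deposited table held 87 of them among 18919 genes. One match, Acss2os, is an antisense RNA gene inside Acss2 and encodes no enzyme. Expression was measured by RNA sequencing of whole mouse intestine in 2 libraries, 1 per genotype. Both pools were C57BL/6 mice, 2 months old, untreated, and differed in genotype by their labels: APCmin for the control pool, and APCmin; Setd2IEC-/- for the knockout pool. Both pools thus carried APCmin, the Min allele that truncates the tumour suppressor Apc, so that neither is a wild-type intestine. The knockout pool also lacked Setd2, which trimethylates histone H3 at lysine 36, in intestinal epithelial cells, while other cells of the tissue keep it; the Cre line is not given in the sources used here. Each library was made from the mixed RNA of 3 littermates, so animals cannot be told apart, a difference has no replicate check, and no p-value between genotypes was computed. The comparison asks how these transcripts differ when the Apc-mutant epithelium lacks Setd2.

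In the small intestine, fatty acids released from dietary fat enter the enterocyte, are held by small binding proteins, activated to acyl-CoA and re-esterified to triglyceride for chylomicrons or for cytosolic droplets. Acyl-CoA can instead be taken into mitochondria through carnitine esters and oxidised. Synthesis from acetyl-CoA, elongation and desaturation supply membrane lipids, which dividing crypt cells also need.

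The libraries held 8809678 expected counts (control) and 8646358 (knockout). Setd2 was at 6.87 FPKM (fragments per kilobase of transcript, scaled to the mapped total) in the control and 3.47 in the knockout library, a ratio of 0.504 after scaling counts to library totals (95% counting interval 0.432 to 0.587). All 26 of 26 enterocyte markers were measured, with a summed level of 35685 and 29013 FPKM. Marker lists differed between the libraries. Enterocyte markers had a log2 ratio (knockout over control, after adding 1 FPKM to both) below 0 for 24 of 26 genes, with a median of -0.39, and 14 of 14 crypt stem and progenitor markers were above 0, with a median of 0.41. Exocrine pancreas transcripts made up 0.0140% of all FPKM in the control and 0.535% in the knockout library, with 18 of 18 measured genes at least 2-fold higher, and red cell and stomach transcripts were higher there too, with list medians of 1.68 and 1.86. Region lists were mixed. Of 11 markers of proximal intestine, 3 were at least 2-fold higher (2.78% of all measured genes) and 5 were below 0, with a median of 0.25. Of 10 measured markers of distal intestine, 4 were at least 2-fold lower (1.28% of all measured genes) and 4 were above 0, with a median of -0.53. Fabp1 is in the proximal list, among those below 0, and Fabp6 in the distal list, among those above 0. The part of all these lists in the results that follow was not tested, and in bulk tissue fewer cells of a type and less RNA per cell cannot be told apart.

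A gene was counted as measured at 1 FPKM or more in at least 1 library. This held for 70 of the 87 members, 4 of which (Fabp3, Fabp6, Pnpla1 and Acss2os) passed through the knockout library alone and so had to be higher there. The 17 others (Acacb, Acsm2, Acsm4, Acss3, Cpt1c, Elovl2, Elovl4, Fabp7, Fabp12, Lpcat2b, Plin1, Plin5, Pnpla3, Scd3, Scd4, Slc27a5 and Slc27a6) were under 1 FPKM in both libraries, and 3 of them (Acsm4, Lpcat2b and Plin5) were listed at 0 in both.

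The most abundant transcripts of fatty acid uptake and binding (Fabp1, Fabp2, Slc27a4 and Slc27a2) were lower in the knockout library. Scarcer ones of the same families lay on both sides. Transcripts for synthesis, elongation and desaturation were scarcer and higher, with a median log2 ratio of 0.37. Those for storage and oxidation had medians of 0.08 and 0.14. Their counting intervals lay above 1 for 8 of 22 and 7 of 16 (28% of all measured genes). Intervals lay below 1 for 3 and 2 (12.5% of all measured genes). Together the members made up 2.38% of all FPKM in the control and 1.76% in the knockout library, at 12316 and 9049 FPKM. Most of that difference came from Fabp1 and Fabp2; without them the sums were 3627 and 3377 FPKM. Of the 70 measured members, 3 were at least 2-fold higher (log2 ratio of 1 or more: Lpcat4, Scd2 and Fabp3), where 2.78% of all measured genes were, and 1 was at least 2-fold lower (Acsm5), where 1.28% of all measured genes were. These shares, 4.29% and 1.43%, are near the background of the whole table. The ratio was above 0 for 49 members (62.5% of all measured genes) and below 0 for 21 (37.2% of all measured genes), and the median was 0.14 beside 0.08 over all measured genes. When the knockout library was scaled so that the median ratio of all genes was 1 (median-ratio scaling), 40 members were above 0 and 30 below, with a median of 0.07 beside 6634 and 6619 of all measured genes. The counting interval of the count ratio lay above 1 for 28 members (28% of all measured genes) and below 1 for 13 (12.5% of all measured genes). That interval covers counting error between these libraries and nothing else, and it narrows with abundance.

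**Figure D1:**
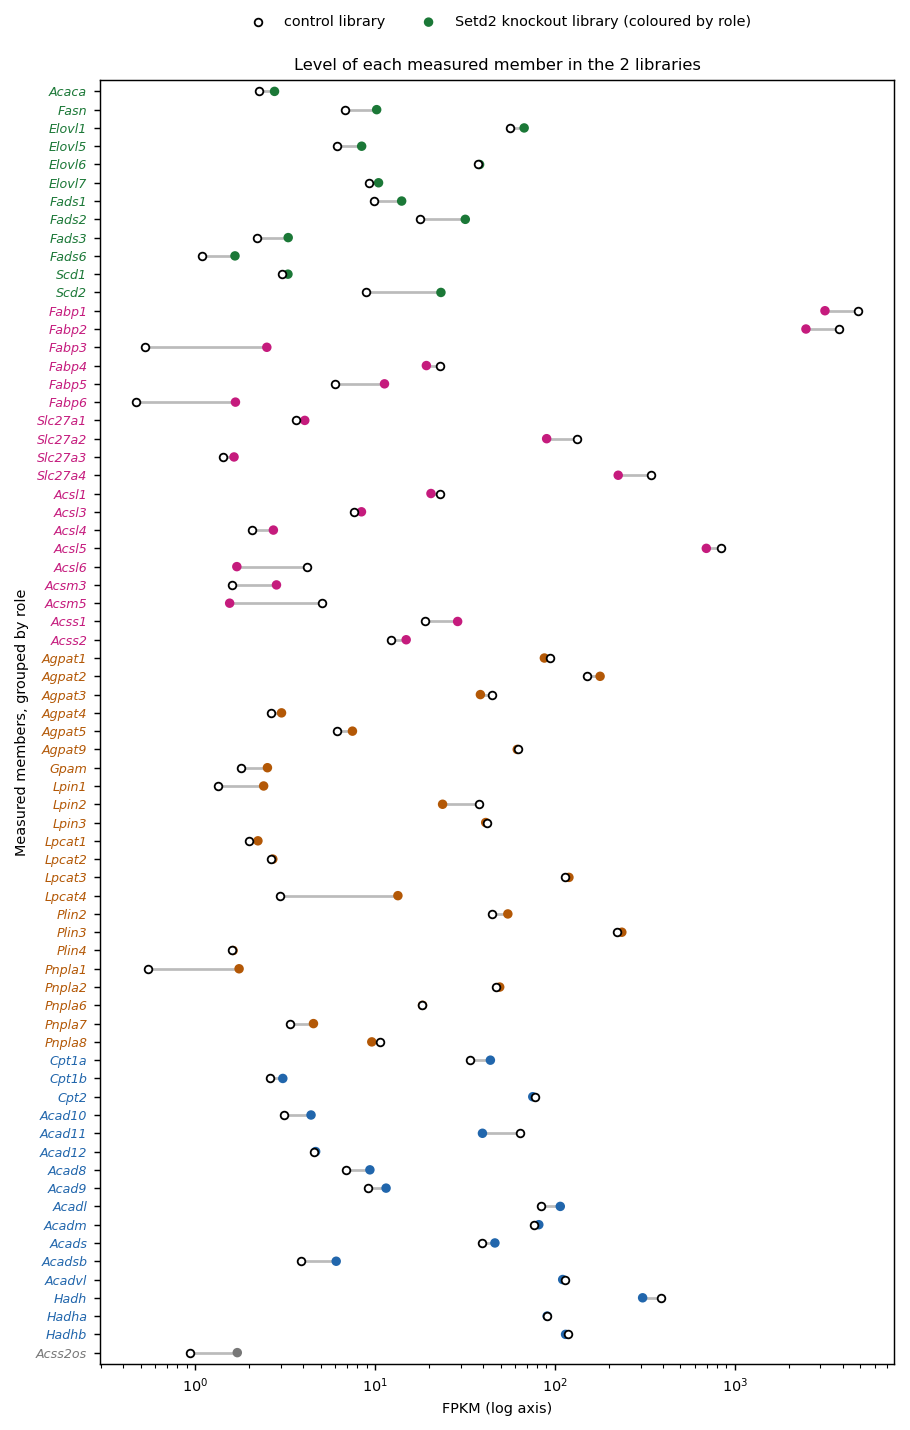
FPKM of the 70 measured members on a log axis, with the control library as open circles and the knockout library as filled circles coloured by role (green, synthesis, elongation and desaturation; magenta, uptake, binding and activation; brown, glycerolipid assembly and storage; blue, oxidation; grey, the antisense RNA gene). Fabp1 and Fabp2 lie far to the right of all others and have the knockout point on the left, while the 12 green genes have it on the right or on top of the control point.

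The measured members were also divided by level. Among the 19 measured members with a mean of 50 FPKM or more, 13 were below 0, beside 780 of all 1630 genes at that level. The median log2 ratio was -0.05, beside 0.02 for those genes. Among the 33 members under 10 FPKM, 31 were above 0, beside 4725 of all 7273 such genes, and the median was 0.33 beside 0.12. When scaled by the median ratio, 28 of these members and 4050 of these genes were above 0. That class holds the 4 members that passed through the knockout library alone. With 1 FPKM or more in both libraries, 27 of 29 members were above 0, beside 3982 of 6209 genes, and the median was 0.25 beside 0.10. The 18 members in between had a median of 0.14, beside 0.07 for 4350 genes. These level classes were chosen after the values were seen.

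**Figure D2:**
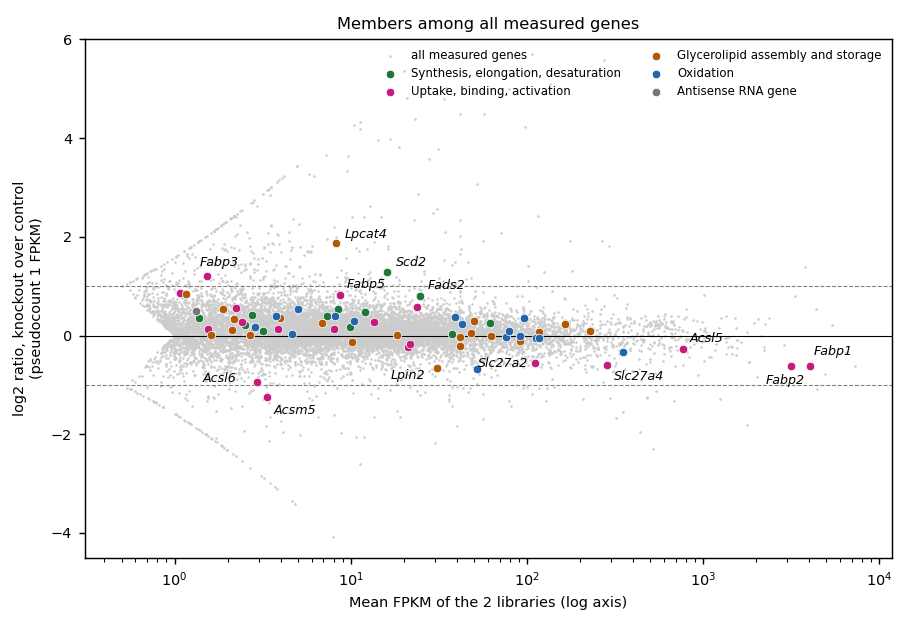
The log2 ratio of each measured gene (knockout over control, pseudocount 1 FPKM) against its mean FPKM on a log axis, with all 13253 measured genes in grey and members coloured by role; dashed lines mark a log2 ratio of 1 and -1. Lpcat4 (1.87), Scd2 (1.30) and Fabp3 (1.20) lie above the upper line and Acsm5 (-1.25) below the lower one, while Fabp1 and Fabp2, at the far right, both lie at -0.62.

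The sequences just upstream of 4 of these genes are shown because they are the most abundant pair, both lower in the knockout library, and the members with the lowest and the highest log2 ratio. Each run is the 250 bases before the transcript start that the RefSeq window uses (GRCm38.p6, the assembly of mm10), on the plus strand: chr6:71199629-71199878 for Fabp1, chr3:122894822-122895071 for Fabp2, chr7:119526015-119526264 for Acsm5 and chr2:112239591-112239840 for Lpcat4. Capitals mark a direct repeat of nuclear receptors (2 copies of AGGNCA with 1 base between them) and a TATA box (TATAAA) in Fabp1, a CCAAT box (CCAAT) in Fabp2, an E-box (CACGTG) in Acsm5 and GC boxes (GGGCGG) in Lpcat4, searched on both strands, so that a capital run may be the reverse complement. The Acsm5 window also holds a CCAAT box, left in lower case, and the start it uses lies downstream of the first base of the gene (119526131), so the window overlaps the gene and its E-box lies inside it.
Fabp1: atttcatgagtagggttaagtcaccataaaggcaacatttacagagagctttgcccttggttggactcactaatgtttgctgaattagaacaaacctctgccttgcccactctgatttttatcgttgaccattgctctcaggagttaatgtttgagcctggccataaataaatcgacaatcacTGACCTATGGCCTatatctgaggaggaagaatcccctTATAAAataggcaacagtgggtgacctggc
Fabp2: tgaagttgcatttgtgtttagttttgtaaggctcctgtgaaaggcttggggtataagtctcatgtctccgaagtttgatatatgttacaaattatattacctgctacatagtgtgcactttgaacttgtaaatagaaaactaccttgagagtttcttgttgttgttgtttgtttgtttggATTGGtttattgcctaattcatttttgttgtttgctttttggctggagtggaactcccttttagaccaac
Acsm5: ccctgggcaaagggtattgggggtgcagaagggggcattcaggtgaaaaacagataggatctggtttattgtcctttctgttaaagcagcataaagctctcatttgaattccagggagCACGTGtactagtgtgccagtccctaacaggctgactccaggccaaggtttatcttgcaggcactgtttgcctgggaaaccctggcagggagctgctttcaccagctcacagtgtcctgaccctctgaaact
Lpcat4: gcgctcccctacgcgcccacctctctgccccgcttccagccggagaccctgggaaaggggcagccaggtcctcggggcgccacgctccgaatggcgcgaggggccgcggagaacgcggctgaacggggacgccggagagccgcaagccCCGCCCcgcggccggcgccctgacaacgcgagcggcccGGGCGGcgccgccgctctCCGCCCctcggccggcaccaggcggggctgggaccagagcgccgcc
The Lpcat4 window was 79.6% G and C and held 3 GC boxes, while those of Fabp1 (42.8%), Fabp2 (35.6%) and Acsm5 (51.2%) held 0; the median of the measured members was 60% and that of all measured genes 59.2%. A RefSeq window was at hand for 75 members, 62 of them measured, and for 10408 measured genes in all; a gene with several windows counts once. The direct repeat was in 2 of the 62 (Elovl1 and Fabp1; 0.375% of all), and its single copy AGGTCA, which the repeat can contain, in 13 (13.7% of all). The sterol response element TCACNCCAC was in 2 (Acsl1 and Fabp6; 1.23% of all), the E-box in 5 (9.67%), the CCAAT box in 29 (40.4%), the GC box in 39 (61.7%) and the TATA box in 3 (8.68%). A match describes the letters of the window only.

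Genes of fatty acid synthesis, elongation and desaturation were higher in the knockout library as a group of modest differences. All 12 measured members of these families had a log2 ratio above 0 as deposited (62.5% of all measured genes). After the knockout library was scaled by the median ratio 11 were above 0, beside 6634 of all 13253 measured genes (Elovl6 turned to -0.06). The median as deposited was 0.37, beside 0.08 over all measured genes, and 1 was past 2-fold (2.78% of all measured genes). All 12 had 1 FPKM or more in the control library. Over all 17 members of these families, measured or not, the summed level was 217 FPKM against 163 in the control library, with a count ratio of 1.32 (1.27 to 1.37).

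Fasn, the multifunctional synthase that builds palmitate (chromosome 11, 120805958 to 120825166), was at 6.79 FPKM in the control and 10.24 in the knockout library, a count ratio of 1.51 (1.36 to 1.67). Acaca, the carboxylase that supplies its malonyl-CoA, was at 2.27 and 2.77 FPKM, with an interval that held 1 (0.997 to 1.49). Acacb, whose malonyl-CoA restrains carnitine transfer at the mitochondrion, was at 0.55 and 0.66.

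Stearoyl-CoA desaturases put the first double bond into saturated acyl-CoA, and their 4 genes lie side by side on chromosome 19. Scd2 (44293676 to 44306864) was at 8.90 FPKM in the control and 23.31 in the knockout library, from 433 and 1112 counts, a ratio of 2.62 (2.34 to 2.93). Scd1 was at 3.03 and 3.29 FPKM, for a count ratio of 1.08 (0.845 to 1.38). By the log2 ratio with its pseudocount, Scd2 alone of this cluster was past 2-fold. Scd3 (0.68 and 0.67 FPKM) and Scd4 (0.20 and 0.47 FPKM, a count ratio of 2.65 with an interval of 0.886 to 9.49) were scarce. Their counts were fractional, since RSEM divides reads that fit several copies, but the sum over the cluster does not depend on how reads were divided within it: all 4 had 590 and 1284 counts, a ratio of 2.22 (2.01 to 2.45). Scd2 made up 69.5% of the summed FPKM of the cluster in the control and 84.0% in the knockout library.

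The front-end desaturases Fads1 and Fads2, which make polyunsaturated fatty acids, and their neighbour Fads3 form another cluster on chromosome 19 (10040855 to 10196874). Fads2 was at 17.84 FPKM in the control and 31.84 in the knockout library, a ratio of 1.78 (1.52 to 2.10). Fads1 was at 9.91 and 14.10 FPKM, for a count ratio of 1.42 (1.22 to 1.65), and Fads3 at 2.21 and 3.30 FPKM, for a count ratio of 1.50 (1.08 to 2.09). All 3 intervals lay above 1, and none of the 3 was past 2-fold. Fads6, of unclear substrate, was at 1.09 and 1.67 FPKM from 12 and 18 counts, too few to tell apart.

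Elongases add carbons to existing acyl-CoA, and 4 of the 6 in the table were measured. Elovl5, which elongates polyunsaturated chains, was at 6.20 FPKM in the control and 8.45 in the knockout library, a ratio of 1.36 (1.10 to 1.69). Elovl1, which makes very long saturated chains, was at 56.45 and 67.64 FPKM, for a count ratio of 1.19 (1.09 to 1.31). Elovl6, which extends palmitate, was at 37.30 and 38.23 FPKM (0.963 to 1.09), and Elovl7 at 9.23 and 10.49 FPKM (0.997 to 1.29); both intervals held 1. The crypt and progenitor markers, with a median of 0.41, moved the same way as these families, and whether they account for it was not tested.

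Uptake, binding and activation genes were split, with 10 of 19 measured members above 0 and 9 below. Their counting intervals lay above 1 for 6 (28% of all measured genes) and below 1 for 8 (12.5% of all measured genes). Among all 1630 genes with a mean of 50 FPKM or more, where intervals are narrower, 540 had one below 1. The abundant members of this group were the lower ones. Over all 26 members of the group, measured or not, the summed level was 10115 FPKM in control and 6808 in knockout. Fatty acid binding proteins carry acyl chains through the cytosol, and Fabp1 and Fabp2 are the forms of the enterocyte. Fabp1 was at 4870.3 FPKM in the control and 3179 in the knockout library, a ratio of 0.653 (0.638 to 0.667). Fabp2 was at 3818 and 2493 FPKM, for a count ratio of 0.653 (0.641 to 0.664), the same ratio to 3 digits. With log2 ratios of -0.62 each, neither reached 2-fold. They held 55.9% and 43.8% of the FPKM of the family in the control library, and 55.7% and 43.7% in the knockout library. Of the 26 enterocyte markers 24 were below 0, among them Apoa4 with a count ratio of 0.649 (0.643 to 0.655), at 8881 and 5765 FPKM. Prap1 was 1 of the 2 above 0, with a count ratio of 1.16 (1.14 to 1.18), at 5011 and 5796 FPKM.

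Among the scarcer binding proteins Fabp5 was higher and Fabp4 lower. Fabp3 and Fabp6 were measured through the knockout library alone, so that their direction was fixed by the filter. Fabp5, of epidermis and many other cells, was at 5.97 FPKM in the control and 11.32 in the knockout library, a ratio of 1.90 (1.33 to 2.73). Fabp3, the heart form, was past 2-fold at 0.53 and 2.51 FPKM, from 3 and 14 counts, so its ratio of 4.75 has an interval of 1.33 to 25.8. Fabp6, the bile acid carrier of the ileum, was at 0.47 and 1.68 FPKM from 2 and 7 counts (interval 0.679 to 35.2). Fabp4, the form of adipocytes and capillaries, was at 23.01 and 19.35 FPKM (0.642 to 1.10). In the adipocyte list of 14 genes, 8 were measured, at a median of -0.16, and all 14 together had sums of 302 and 278 FPKM. Genes that other tissues share made up most of that sum, such as Pck1, an enzyme of gluconeogenesis, at 112.8 and 117.0 FPKM, and Cidec, a droplet protein picked with its value known, at 109.7 and 104.3. Some genes of adipocytes, picked with their values known, were under 1 FPKM in both libraries. Adipoq was at 0.47 and 0.09 FPKM, Lep at 0 and 0.04, Retn at 0 in both libraries, and the member Plin1 at 0.06 in both. Others of the list were measured, with Cfd at 2.89 and 2.05 FPKM and Cidea at 0.20 and 1.31. The cells that Fabp4 transcripts came from were not tested. The 12 endothelial markers had 11 above 0, a median of 0.28 and sums of 44.4 and 58.6 FPKM.

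Fatty acid transport proteins are membrane acyl-CoA synthetases that favour uptake. Slc27a4, the main form of the intestine, was at 343.6 FPKM in the control and 225.4 in the knockout library, a ratio of 0.656 (0.638 to 0.675). Slc27a2, which activates very long chains, was at 133.2 and 90.2 FPKM, for a count ratio of 0.677 (0.638 to 0.719). Both ratios lay close to those of Fabp1 and Fabp2, and neither gene reached 2-fold. The scarce Slc27a1 (3.66 and 4.08 FPKM) and Slc27a3 (1.43 and 1.65 FPKM) had intervals that held 1.

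Acyl-CoA synthetases trap fatty acids as CoA esters. Acsl5, the most abundant form here and one linked to triglyceride synthesis, was at 838.6 FPKM in the control and 696.4 in the knockout library, a ratio of 0.830 (0.814 to 0.846). Acsl6, better known from brain, was at 4.19 and 1.71 FPKM, from 97 and 38 counts, a count ratio of 0.399 (0.267 to 0.586), though its log2 ratio of -0.94 stayed within 2-fold after the pseudocount. Acsl1 was at 23.14 and 20.52 FPKM (0.800 to 0.982), Acsl3 at 7.63 and 8.43 (0.911 to 1.28), and Acsl4, which prefers arachidonate, at 2.07 and 2.73 (1.02 to 1.79).

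The synthetases of shorter chains went apart. Acsm5, a mitochondrial medium-chain form (chromosome 7, 119526131 to 119543360), was at 5.10 FPKM in the control and 1.56 in the knockout library, from 113 and 34 counts, and its ratio of 0.307 (0.203 to 0.453) was the lowest of the 70. Acsm3, a gene of the same chromosome 7 cluster, was higher instead, at 1.61 and 2.84 FPKM, for a count ratio of 1.79 (1.18 to 2.76). Acss1, which activates acetate in mitochondria, was at 18.91 and 28.87 FPKM, for a count ratio of 1.53 (1.38 to 1.70), and Acss2, its form of cytosol and nucleus, at 12.27 and 14.94 FPKM, for a count ratio of 1.22 (1.04 to 1.42). Acss2os had 5 and 9 counts. No label or header used here gives the strand of the reads, so reads of Acss2os and Acss2 cannot be told apart.

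**Figure D3:**
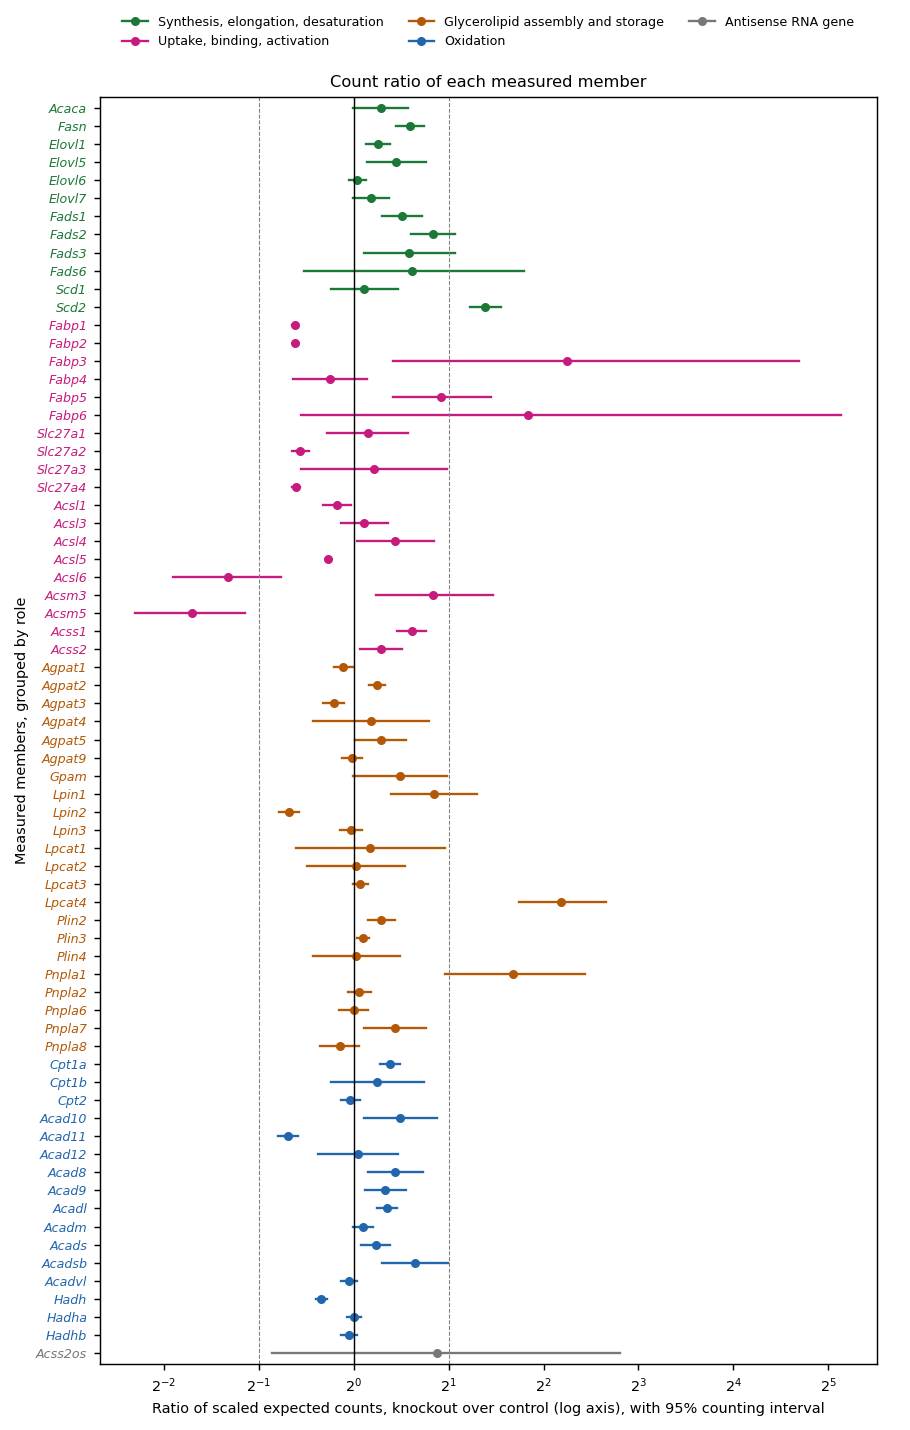
Ratio of expected counts scaled to library totals (knockout over control, log axis) for the 70 measured members, with 95% counting intervals as bars and colours by role; the solid line marks 1 and the dashed lines 0.5 and 2. Intervals of abundant genes such as Fabp1, Fabp2 and Acsl5 are narrower than their points, while those of Fabp3 (1.33 to 25.8) and Fabp6 (0.679 to 35.2) span most of the axis.

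Enzymes that build phosphatidate and diacylglycerol had 5 of 10 members above 0 and a median of 0.06 (-0.02 when scaled by the median ratio). Their summed level was 446 FPKM in control and 448 in knockout, while their summed counts had a ratio of 0.943 (0.917 to 0.970). Lpin2 had the log2 ratio farthest from 0 in this group (-0.66, with the pseudocount). It is a phosphatidate phosphatase that releases diacylglycerol, and it was at 38.19 FPKM in the control and 23.81 in the knockout library, a ratio of 0.624 (0.580 to 0.671). Lpin3 was at 42.18 and 41.35 FPKM (0.906 to 1.06) and Lpin1 at 1.35 and 2.41 FPKM, for a count ratio of 1.79 (1.31 to 2.46). Lpin2 thus made up 46.7% of the summed FPKM of the lipins in the control and 35.2% in the knockout library.

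The acyltransferases of the same route differed less. Agpat2, whose loss causes lipodystrophy, was at 151.2 FPKM in the control and 178.8 in the knockout library, a ratio of 1.18 (1.11 to 1.25). Agpat3 went the other way, at 44.78 and 38.63 FPKM, for a count ratio of 0.862 (0.797 to 0.933), and Agpat1 was at 94.56 and 87.61 (0.863 to 0.992). Agpat9, now named Gpat3, a glycerol-phosphate acyltransferase, was at 62.77 and 61.93 (0.919 to 1.06), and its mitochondrial counterpart Gpam at 1.81 and 2.53 (0.995 to 1.97). Agpat5 was at 6.16 and 7.51 FPKM (1.01 to 1.47) and Agpat4 at 2.65 and 3.03 (0.742 to 1.73).

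Lysophospholipid acyltransferases remodel membrane phospholipids, and Lpcat4 had the highest log2 ratio of the 70 measured members (1.87); by count ratio Fabp3, with 3 and 14 counts, was above it. Lpcat4 (chromosome 2, 112239841 to 112247111) was at 2.96 FPKM in the control and 13.44 in the knockout library, from 50 and 223 counts, a ratio of 4.54 (3.33 to 6.31). Lpcat3, the main intestinal form, which loads polyunsaturated chains, was at 114.4 and 120.0 FPKM, for a count ratio of 1.05 (0.992 to 1.11). Lpcat1 (1.99 and 2.24 FPKM) and Lpcat2 (2.66 and 2.71 FPKM) were low in both libraries, with intervals that held 1. Lpcat4 was the one member of its family past 2-fold, with a share of the family FPKM that went from 2.43% to 9.71%.

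Droplet coat proteins and lipases had median log2 ratios of 0.09 and 0.06, with 0 past 2-fold by that ratio. Intervals lay above 1 for 2 of 3 and 2 of 5 (28% of all measured genes), and below 1 for 0. Plin3, the abundant perilipin, was at 221.2 FPKM in the control and 236.1 in the knockout library, a ratio of 1.07 (1.02 to 1.11), whose log2 value turned from 0.09 to -0.004 when scaled by the median ratio. Plin2, which coats cytosolic droplets, was at 44.83 and 54.89 FPKM, for a count ratio of 1.22 (1.11 to 1.35). Pnpla2, the triglyceride lipase ATGL, was at 47.43 and 49.46 FPKM (0.959 to 1.13). Pnpla6 (18.39 and 18.42 FPKM), Pnpla8 (10.66 and 9.62 FPKM) and Plin4 (1.60 and 1.63 FPKM) also had intervals that held 1. Pnpla7, a lysophospholipase, was at 3.37 and 4.56 FPKM (1.08 to 1.70). Pnpla1, known for skin acylceramide, was at 0.55 and 1.76 FPKM, from 22 and 69 counts, a count ratio of 3.20 (1.95 to 5.42) that the pseudocount brought to a log2 ratio of 0.83.

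Oxidation enzymes included 16 measured members, 0 past 2-fold, with a median of 0.14. The log2 ratio was above 0 for 10 (62.5% of all measured genes). When scaled by the median ratio it was above 0 for 8, beside 6634 of all 13253 measured genes. Over all 17 oxidation members, measured or not, the summed level was 1121 FPKM in the control and 1059 in the knockout library. Cpt1a, the rate-setting carnitine palmitoyltransferase of the outer membrane, was at 33.77 and 43.90 FPKM, for a count ratio of 1.30 (1.21 to 1.40). Cpt2, which reforms acyl-CoA inside, was at 77.40 and 75.52 FPKM (0.909 to 1.05), and Cpt1b, the muscle form, at 2.61 and 3.08 (0.845 to 1.67).

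Among acyl-CoA dehydrogenases, which take the first step of each cycle, 8 of 10 were above 0 (62.5% of all measured genes). When scaled by the median ratio 6 were above 0, beside 6634 of all 13253 measured genes. Their median as deposited was 0.26. Intervals lay above 1 for 6 (28% of all measured genes) and below 1 for 1 (12.5% of all measured genes). Acadl, for long chains, was at 84.24 FPKM in the control and 107.4 in the knockout library, a ratio of 1.27 (1.19 to 1.37). Acads, for short chains, was at 39.61 and 46.52 FPKM (1.06 to 1.31), Acadm, for medium chains, at 76.32 and 81.58 (0.992 to 1.15), and Acadvl, for very long chains, at 114.6 and 110.8 (0.910 to 1.03). Acad11, for long and very long chains, stood apart on the lower side, at 63.94 and 39.66 FPKM, for a count ratio of 0.620 (0.576 to 0.667).

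The family also holds enzymes of other routes. Acadsb, of isoleucine breakdown, was at 3.90 FPKM in the control and 6.10 in the knockout library (1.23 to 1.99), Acad8, of valine breakdown, at 6.93 and 9.39 (1.11 to 1.66), and Acad9, an assembly factor of respiratory complex I, at 9.21 and 11.55 (1.08 to 1.46). Acad10 (3.13 and 4.42 FPKM) and its neighbour Acad12 (4.59 and 4.69 FPKM) had fractional counts, which for both together added to 197 and 236, a ratio of 1.22 (1.01 to 1.48).

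The later steps were level or lower. Hadh, the short-chain hydroxyacyl-CoA dehydrogenase and the most abundant oxidation gene here, was at 390.3 FPKM in the control and 308.1 in the knockout library, a ratio of 0.789 (0.760 to 0.820). Hadha and Hadhb, which lie head to head on chromosome 5 and encode the subunits of the trifunctional protein, were at 90.81 and 90.78 FPKM and at 118.7 and 114.9 FPKM. Their ratios, 0.999 (0.950 to 1.05) and 0.966 (0.909 to 1.03), did not differ from 1 beyond counting error.

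Other genes of the same routes, outside the symbol rule, were within 2-fold with few exceptions. Of 15 other synthesis and elongation genes, 0 were past 2-fold and 10 were above 0, with a median of 0.12. The citrate carrier Slc25a1 was at 90.38 and 98.47 FPKM, and malic enzyme Me1, a source of NADPH, was lower, at 32.30 and 26.43. In the list of other glycerolipid genes, 12 were measured, 8 below 0 (11 when scaled by the median ratio), with a median of -0.06. Dgat1, which makes triglyceride, was at 423.8 and 347.8 FPKM, for a count ratio of 0.820 (0.791 to 0.851), and the glycerol kinase gene Gk was at 51.63 and 30.59. Mboat1, a lysophospholipid acyltransferase of another family than Lpcat4, was past 2-fold, at 1.10 and 9.10 FPKM, for a count ratio of 8.30 (5.59 to 12.8). All 9 measured chylomicron assembly genes were below 0 (37.2% of all measured genes), also under both other scalings, with a median of -0.24. Each of their intervals lay below 1 (12.5% of all measured genes), from Apob at 295.3 and 272.8 FPKM to Apoa4 (8881 and 5765).

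Among 15 other storage and lipolysis genes 1 was past 2-fold, Hilpda, an inhibitor of Pnpla2, at 1.88 FPKM in the control and 6.70 in the knockout library, a ratio of 3.57 (2.02 to 6.66). Lipe, hormone-sensitive lipase, was at 43.32 and 33.27 FPKM, and the list median was -0.03. The 16 other genes of mitochondrial oxidation had 0 past 2-fold and a median of 0.03 (-0.06 when scaled by the median ratio), with the carnitine carrier Slc25a20 at 32.65 and 41.98 FPKM and the thiolase Acaa2 at 216.2 and 182.4. Of 17 peroxisomal genes, 12 were below 0 (16 when scaled by the median ratio), with a median of -0.20 and the lipid carrier Scp2 at 287.6 and 215.0 FPKM. Of 21 regulators of lipid genes, 0 were past 2-fold and 13 were below 0 (37.2% of all measured genes), with a median of -0.03. Nr1h3, the sterol receptor LXR alpha, was at 36.99 and 21.24 FPKM, for a count ratio of 0.579 (0.505 to 0.663), and Mlxipl, the carbohydrate-responsive factor ChREBP, at 49.70 and 30.98, a ratio of 0.623 (0.575 to 0.675). Scap, the escort protein of SREBP, had the highest ratio of these regulators, at 9.83 and 13.26 FPKM. Srebf1, which drives Fasn and Scd genes, was at 21.98 and 22.20 FPKM (0.918 to 1.11), and Ppara, which drives oxidation genes, at 8.07 and 8.09 (0.879 to 1.12); these 2 were picked with their values known.

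**Figure D4:**
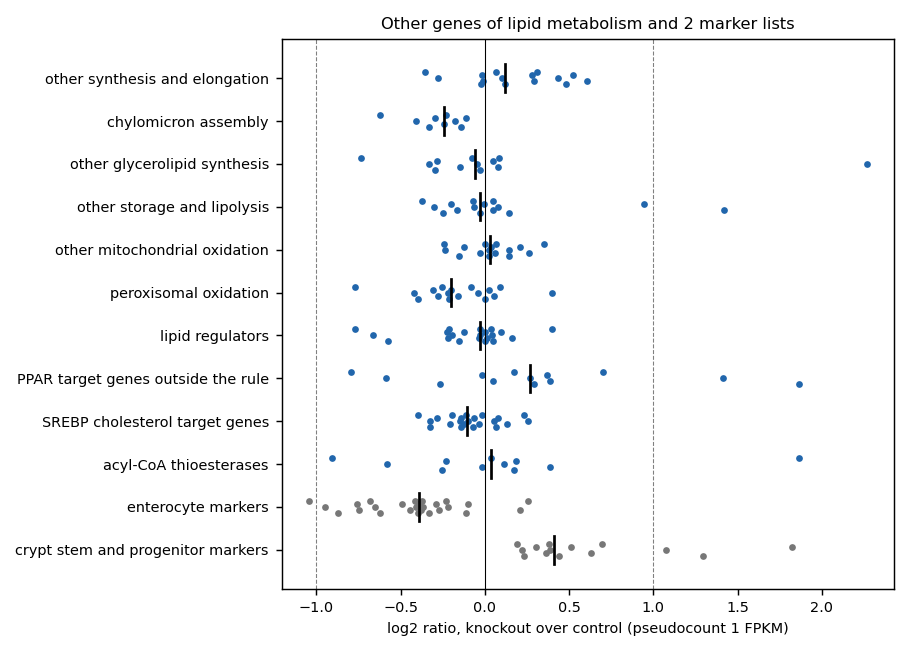
The log2 ratio (knockout over control, pseudocount 1 FPKM) of each measured gene in 10 lists of lipid metabolism (blue) and 2 marker lists (grey), with the list median as a black bar and dashed lines at -1 and 1. The chylomicron genes lie to the left of 0, from -0.62 to -0.11, as do 24 of 26 enterocyte markers, while Mboat1 (2.27) is the farthest to the right. The chylomicron and enterocyte lists share Apoa1, Apoa4, Apob, Apoc3 and Mttp, so these 2 rows are not independent.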

How the data were processed

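Intestinal RNA of 2 pools (control and knockout, each of 3 littermates) was sequenced in 1 library each. Per the labels' protocols, the authors mapped reads to mm10 with BWA/Bowtie and quantified genes with RSEM; the submitters' processing notes name BWA, Bowtie2 and RSEM, and versions are not given in the sources used here. Per the file headers, the deposited values are FPKM (authors' scaling per kilobase and mapped fragments) and expected counts per gene with transcript length. Of the members, 65 had whole expected counts in both libraries and 22 fractional ones.

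Members were found with the symbol rule, whose closing full stop was read as punctuation. The members, roles and lists were chosen with earlier results of these data known. Measured genes had 1 FPKM or more in at least 1 library (13253 genes). The log2 ratio used a pseudocount of 1 FPKM, which understates the difference of low genes. Count ratios use rounded expected counts scaled to library totals, with exact Clopper-Pearson 95% intervals of the knockout share (scipy 1.17.1, Python 3.11.15), tested on simulated data; they cover counting error only. A floor of 3 counts is 0.341 CPM in the control and 0.347 CPM in the knockout library. Any measured member could be named; from other lists, the 2 highest, 2 lowest and most abundant genes. Positions and promoters are from RefSeq, GRCm38.p6, which held all 87 gene identifiers. The alternatives were other pseudocounts, filters and scalings.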

Additional observations from a re-analysis of the deposited data

How the results depend on the processing

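With 1 library per genotype no library could be left out and no test was possible. No paired analysis was possible because each genotype had 1 library and the result comes from no test. The count of members at least 2-fold higher, 3 as reported, was 5 with a pseudocount of 0.1 FPKM and 5 with TPM (Fabp6 and Pnpla1 joined). The count at least 2-fold lower, 1 as reported, was 2 with a pseudocount of 0.1 FPKM, 2 with TPM and 2 with CPM of expected counts (Acsl6 joined), and 0 with a pseudocount of 5 FPKM. Fabp3 was not past 2-fold with CPM or a pseudocount of 5 FPKM, and was left out by a filter of 5 FPKM or, chosen after seeing the data, one of 20 expected counts; the same filters moved the median of the binding proteins from 0.29 to -0.43. Lpcat4 and Scd2 were past 2-fold under every alternative run. The median of all measured genes, 0.08, became 0.0004 with median-ratio scaling. Medians by role were lower under both scalings: that of the lysophospholipid acyltransferases went from 0.09 to 0.0099 (median ratio) and 0.016 (upper quartile), and that of the perilipins from 0.09 to -0.0036 and 0.0035. With the median ratio, those of the patatin-like lipases (0.06 to -0.04) and of the glycerolipid acyltransferases and lipins (0.06 to -0.02) changed sign. The sign of 10 measured members depended on the scaling: Acad12, Acadm, Elovl6, Hadha, Lpcat2, Lpcat3, Plin3, Plin4, Pnpla2 and Pnpla6. The ratio of summed FPKM of the members, 0.735, was 0.742 with TPM, 0.687 with the median ratio, 0.690 with the upper quartile and, chosen after seeing the data, 0.746 with pancreas, stomach and red cell genes left out of the total and 0.931 without Fabp1 and Fabp2. No called member changed sign. Depth limits members under about 20 counts, such as Fabp3, Fabp6 and Fads6.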

Other observations

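Lists next to the fatty acid routes went in several directions. Of 22 cholesterol synthesis and uptake genes driven by SREBP, 0 were past 2-fold and 16 were below 0 (18 when scaled by the median ratio), with a median of -0.11. Stard4, a sterol carrier, was at 31.58 FPKM in the control and 23.71 in the knockout library, a ratio of 0.751 (0.675 to 0.834). Among 13 measured targets of PPAR outside the rule, 2 reached 2-fold, both on the higher side; 9 lay above 0 and the median was 0.27. Acot1, a cytosolic thioesterase that frees fatty acids from CoA, was at 0.97 and 6.18 FPKM, for a count ratio of 6.51 (3.60 to 12.7), and Cyp4a10, an omega-hydroxylase, at 2.32 and 7.86, a ratio of 3.39 (2.39 to 4.88). Others of that list were lower, with Angptl4, a lipase inhibitor, at 19.55 and 12.68 FPKM and Aqp7, a glycerol channel, at 27.92 and 15.65.

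Of 11 measured acyl-CoA thioesterases, Acot1 alone was past 2-fold, and the list, which shares Acot1 and Acot2 with the PPAR targets, had a median of 0.03 (-0.06 when scaled by the median ratio). Acot12, which hydrolyses acetyl-CoA, was at 25.44 FPKM in the control and 13.07 in the knockout library, a ratio of 0.514 (0.450 to 0.586), and Acot8, of peroxisomes, at 35.65 and 46.82, a ratio of 1.31 (1.14 to 1.51). Genes of enteric glia were scarce, with 1 of 6 measured, Cryab, at 4.65 and 6.85 FPKM, and the glial form Fabp7 had 2 and 6 counts. Macrophage markers (10 measured) and smooth muscle markers (9 measured) had medians of 0.13 and -0.02.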
